A study of Mus musculus with 117 samples.

Results

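Genes of the smooth muscle contractile apparatus were followed in the mouse, across 7 tumour types and 12 sorted cell populations from normal tissue. The 8 genes were Acta2, Actg2, Myh11, Cnn1, Tagln, Lmod1, Des and Myocd. Each was read from the probe set that is annotated to that gene alone and has the highest mean over all 117 arrays. This gave a value for 7 of the 8, out of 17097 genes measured. The probe set of Tagln, which encodes the actin-binding protein transgelin, is annotated to Tagln and Pcsk7 together and was not used.

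Signals were compared on single-colour arrays as log2 values, so that a difference of 1 is a 2-fold change. All animals were of the C57BL/6 strain. Prom1 is a membrane glycoprotein used as a surface marker of stem and progenitor cells, and the sorted cells were dissociated from normal tissue and separated on anti-Prom1 beads. The tumours were pieces of tissue frozen right after death. The tumour groups, each with the sorted groups of its organ, were prostatic adenocarcinoma (10 tumours) with Prom1-positive (3 samples) and Prom1-negative (5) prostate cells, bronchial papillary adenoma (14) with Prom1-positive (3) and Prom1-negative (7) lung cells, and hepatocellular carcinoma (13) with Prom1-positive (4) and Prom1-negative (7) liver cells. Gastric adenocarcinoma (11) went with Prom1-positive (3) and Prom1-negative (4) stomach cells, and uterine adenocarcinoma (9) with Prom1-positive (4) and Prom1-negative (3) uterus cells. Skin squamous cell carcinoma (6) and B-cell lymphoma (3) had no normal group, and Prom1-positive (3) and Prom1-negative (5) intestine cells had no tumour. The series text names Prom1 conditional mutants, but the labels give no genotype, Cre driver, age or agent for any tumour. Whether replicates came from different animals is not stated, and p-values therefore reflect only the spread between the samples measured. Replicates are named by group and number, and the numbers of tumours are names without an order.

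Smooth muscle cells contract when a smooth muscle myosin, whose heavy chain is encoded by Myh11, pulls on filaments built of the actins Acta2 and Actg2. Calponin (Cnn1) and transgelin bind these filaments, leiomodin 1 (Lmod1) nucleates them, and desmin (Des) forms the intermediate filaments that tie them together. Many of these genes are switched on by serum response factor and its co-activator myocardin (Myocd), which act through a DNA element called the CArG box. Acta2 is also made by myofibroblasts, pericytes and myoepithelial cells, and Des by striated muscle, so that neither alone marks smooth muscle, whereas Myh11 and Actg2 are more restricted to it.

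The CArG box links the members to their regulator, and the stretch before a RefSeq start site of Acta2 (GRCm38.p6, minus strand, chr19:34255374-34255623, 250 bases) is shown because it was the member window in which such boxes were found. Capitals mark the boxes.
Acta2: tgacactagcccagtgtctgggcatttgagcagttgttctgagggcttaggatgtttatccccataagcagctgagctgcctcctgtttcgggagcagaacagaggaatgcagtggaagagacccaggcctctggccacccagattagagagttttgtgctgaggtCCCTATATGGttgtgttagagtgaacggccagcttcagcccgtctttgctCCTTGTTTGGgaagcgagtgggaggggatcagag
A box was defined as CC, 6 bases of A or T, and GG, which reads the same way on both strands. Both boxes of Acta2, 84 and 34 bases before the start, have 1 C or G among the 6 inner bases. RefSeq windows of 300 bases, 250 before and 50 after a start, were at hand for 4 of the 8 members (Acta2, Cnn1, Des and Lmod1). None of the 4 held a box with A or T at all 6 positions, and Acta2 alone held one with up to 1 C or G. Of all 32851 windows, 1.63% held the strict box and 9.98% the looser one. Strict boxes stood before 4 genes of lists described further on: Myl9, the smooth muscle myosin regulatory light chain, Cnn2, which encodes calponin 2, Vcl, which encodes vinculin, and Srf itself.
Acta2, 84 bases before the start: CCCTATATGG
Acta2, 34 bases before: CCTTGTTTGG
Myl9: CCTAATAAGG
Cnn2: CCTTATAAGG
Vcl: CCTTATAAGG
Srf, 82 bases before: CCATATAAGG
Srf, 62 bases before: CCATAAAAGG
These matches are a description of the sequence and were set against no binding data.

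As a check of the whole series, array medians lay between 3.63 and 4.01 and upper quartiles between 5.05 and 6.53. A signal at or under the array median is called dim here, since it may be background. The defining genes of each organ were above the array median in its sorted cells (4 to 6 measured genes per organ, with at most 1 of them missing). Prom1 itself was higher in the Prom1-positive than in the Prom1-negative cells of prostate (log2 difference 1.76), stomach (1.65) and uterus (1.46), while the difference was 0.01 in lung, 0.53 in intestine and 0.23 in liver, none of which passed the test. Among the tumours, 9 carried transcripts of striated muscle: 3 skin (numbers 2, 4 and 6), 2 gastric (6 and 11), 2 prostatic (9 and 10), 1 uterine (1) and 1 bronchial (1). Genes of another organ were seen in 2 hepatocellular carcinomas (numbers 1 and 8), in uterine tumour 6 and in 1 Prom1-negative intestine sample (replicate 2). By the same measure (a list mean above 4), 7 sorted samples also carried striated muscle transcripts: 2 of 3 Prom1-positive and 4 of 7 Prom1-negative lung samples and 1 of 4 Prom1-negative stomach samples, at list means of 4.17 to 5.12. The stomach sample was the array with the highest median (4.01) and the lowest upper quartile (5.05) of the series. Gastric tumour 11 was below a list mean of 4 (3.70) and was counted for the fast muscle troponin Tnnt3. For some results that rest on these samples, values without them are given as well.

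Of the 7 measured members, Acta2 (chr19:34240336-34255585) was above the array median on 112 of the 117 arrays and Des (chr1:75360292-75368579) on all 117. Actg2 (chr6:83512909-83536251) was above it on 54 arrays, Myh11 (chr16:14194527-14292188) on 51, Lmod1 (chr1:135324813-135368065) on 42 and Cnn1 (chr9:22099221-22109221) on 40. Myocd (chr11:65173608-65269989) was above it on none, with signals between 2.61 and 3.66, and it did not pass the filter on low values. The tests therefore cover 6 members. Differences in Myocd were not detectable with this probe set. A second probe set of Myocd was above the array median on 9 arrays, among them 5 of 10 prostatic adenocarcinomas, and its values are given with the prostatic tumours. The probe set of Acta2 is of a kind that can also match related actin transcripts. Acta2, Myh11 and Des each have a second probe set as well, with means of 2.74, 2.95 and 3.05 that are dim on nearly every array. Read from these, Des ran the other way in prostatic (-0.35) and gastric (-0.31) tumours against normal cells, as did Myh11 in gastric tumours (-0.28). That fall of Des in prostatic tumours passed the test (limma adjusted p at most 0.0325).

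**Figure D1:**
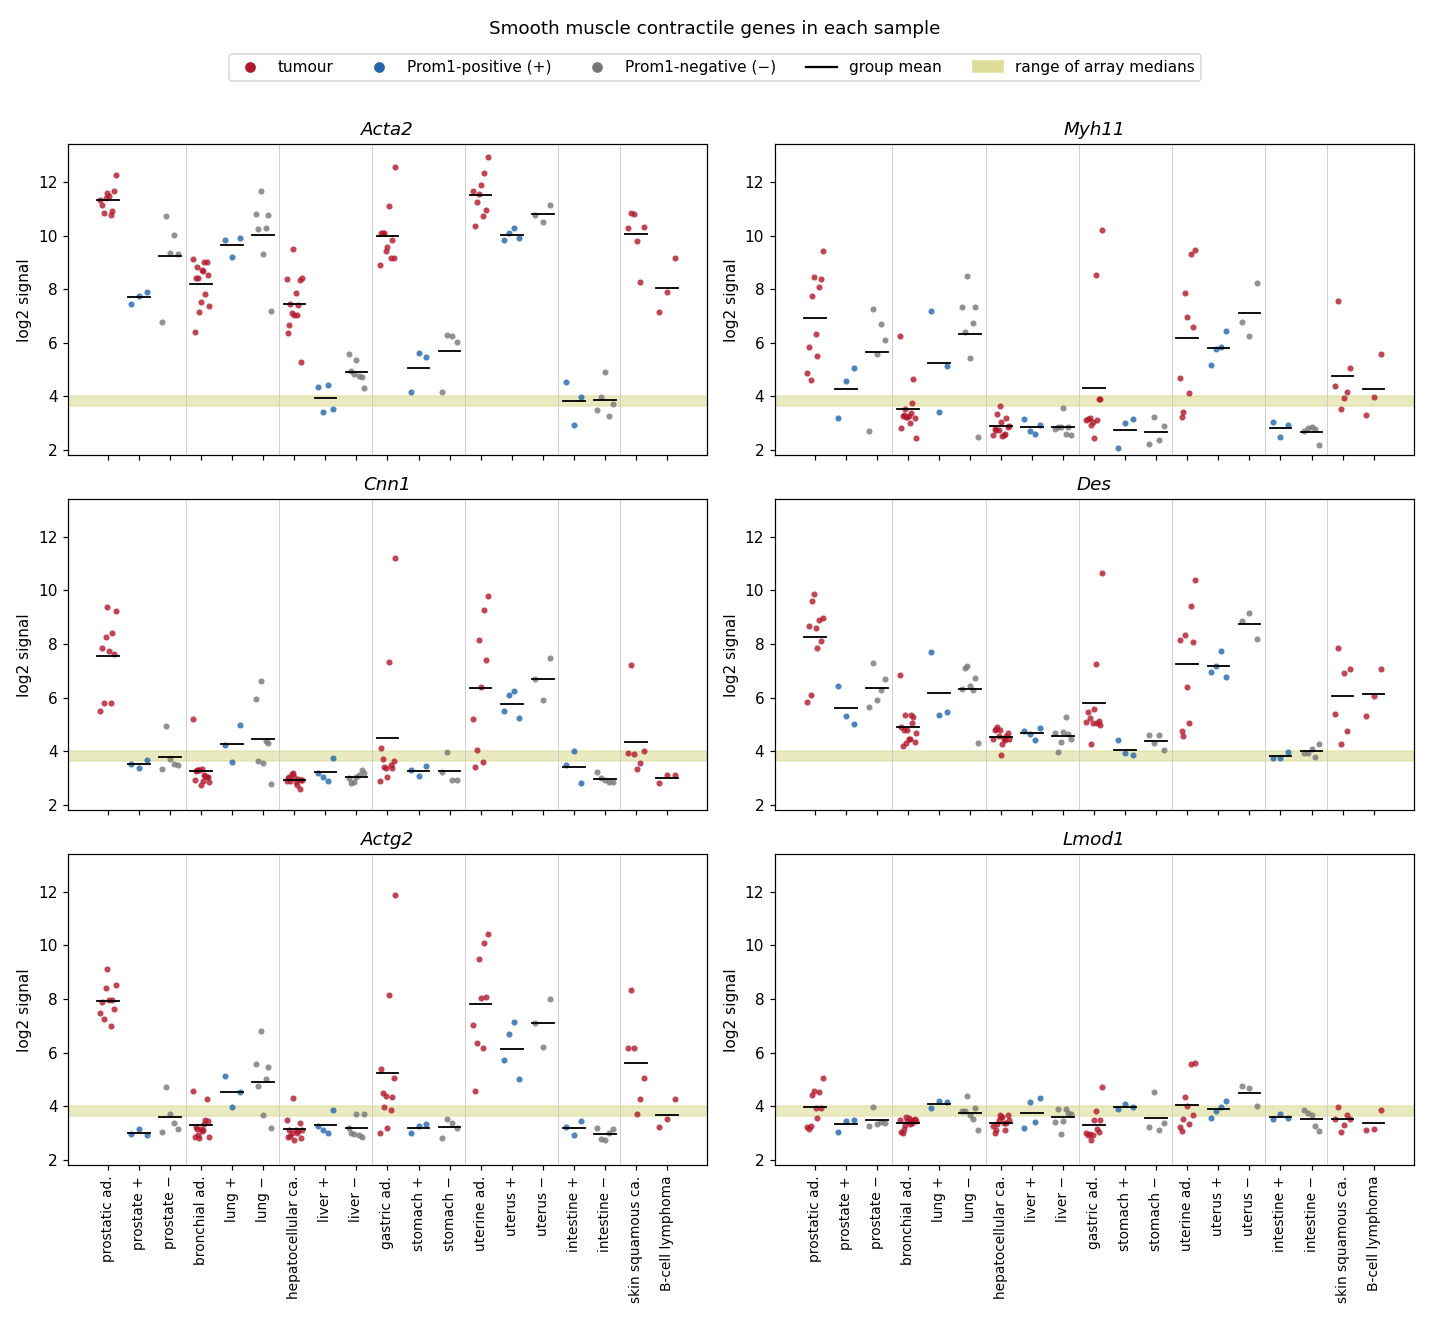
Log2 signal of 6 members (vertical axis) in each sample, by group (horizontal axis), with tumours in red, Prom1-positive cells in blue, Prom1-negative cells in grey, group means as black bars and the range of array medians as a band. Uterus groups, prostatic tumours and sorted lung cells stand above the band in most members, and sorted prostate cells in Acta2, Myh11 and Des. Sorted liver, stomach and intestine cells lie in or near it in most members, with Acta2 higher in stomach and Prom1-negative liver cells. Gastric tumours 7 and 11 stand above the others of their type in Myh11, Cnn1, Des and Actg2, and uterine tumours spread widely in these genes.

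Acta2, the actin of vascular smooth muscle, covered the widest range, from 2.93 to 12.95. In descending order, it averaged 11.52 ± 0.81 in uterine adenocarcinoma, 11.34 ± 0.45 in prostatic adenocarcinoma, 10.80 ± 0.33 in Prom1-negative uterus cells, 10.05 ± 0.95 in skin squamous cell carcinoma, 10.04 ± 0.20 in Prom1-positive uterus cells, 10.04 ± 1.45 in Prom1-negative lung cells and 9.996 ± 1.05 in gastric adenocarcinoma (SD, n as above). Below these came Prom1-positive lung cells at 9.64 ± 0.39, Prom1-negative prostate cells at 9.23 ± 1.49, bronchial papillary adenoma at 8.21 ± 0.83, B-cell lymphoma at 8.06 ± 1.03, Prom1-positive prostate cells at 7.69 ± 0.24 and hepatocellular carcinoma at 7.45 ± 1.08. The lowest 6 groups were Prom1-positive (5.07 ± 0.80) and Prom1-negative (5.68 ± 1.02) stomach cells, Prom1-positive (3.92 ± 0.54) and Prom1-negative (4.92 ± 0.43) liver cells, and Prom1-positive (3.82 ± 0.82) and Prom1-negative (3.87 ± 0.63) intestine cells. No tumour type was among these 6.

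Actg2, the enteric smooth muscle actin, was highest in prostatic adenocarcinoma (7.92 ± 0.64), uterine adenocarcinoma (7.81 ± 1.97), Prom1-negative uterus cells (7.10 ± 0.88) and Prom1-positive uterus cells (6.14 ± 0.96). Its group mean was above the array medians in 8 of the 19 groups, and the dim ones included every stomach, liver and intestine group of sorted cells. Myh11 was led by Prom1-negative uterus cells (7.09 ± 1.04), prostatic adenocarcinoma (6.93 ± 1.69), Prom1-negative lung cells (6.31 ± 1.93) and uterine adenocarcinoma (6.17 ± 2.42), and was dim in 8 groups. Cnn1 was highest in prostatic adenocarcinoma (7.56 ± 1.41), Prom1-negative uterus cells (6.69 ± 0.79) and uterine adenocarcinoma (6.37 ± 2.44).

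Des was highest in Prom1-negative uterus cells (8.74 ± 0.49), followed by prostatic adenocarcinoma (8.25 ± 1.34), uterine adenocarcinoma (7.24 ± 2.13) and Prom1-positive uterus cells (7.17 ± 0.42), and lowest in Prom1-positive intestine cells (3.83 ± 0.14). Lmod1 varied least of the tested members, with group means between 3.29 in gastric adenocarcinoma and 4.48 in Prom1-negative uterus cells. Between neighbours in the order of the 19 group means, the values of the samples overlapped in every pair, for each of the 6 members. The gap exceeded the sum of both SDs in 1 pair, Acta2 in Prom1-positive against Prom1-negative liver cells (a gap of 1.001). Over the 19 group means, Des and Myh11 followed the mean of the other members most closely (Pearson r of 0.955 and 0.943), and Lmod1 (0.547) the least of the 6. These means include Myocd, which was dim on every array and itself ran the other way (-0.593). These are descriptions of groups that share arrays and normalization.

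Among the normal tissues, uterus and lung cells had the highest contractile genes. Prostate cells were high in Acta2, Myh11 and Des but mostly dim in Actg2, Cnn1 and Lmod1 (above the array median in 0 of 3 Prom1-positive and 1 of 5 Prom1-negative samples each). Intestine, liver and stomach cells were dim in Myh11, Cnn1 and Actg2 in nearly all samples, whereas Des was above the array median in every one. All 6 members differed among the 6 tissues by limma's moderated F test, in a comparison in which 90.1% of the 14081 genes tested did. The adjusted p was 2.58e-20 for Acta2, 9.53e-16 for Des, 3.51e-13 for Actg2, 6.23e-11 for Cnn1, 1.64e-09 for Myh11 and 0.00772 for Lmod1. Uterus was the tissue in which both sorted groups were above the array median in Acta2, Actg2, Myh11, Cnn1 and Des in every sample. In intestine, Myh11 was between 2.46 and 3.05 in Prom1-positive cells and between 2.17 and 2.85 in Prom1-negative cells, so that it was dim in every sample. Fewer cells of a type and less RNA per cell cannot be told apart in these bulk samples.

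The next comparison asked whether Prom1-positive and Prom1-negative cells of a tissue differ in contractile genes. Averaged over the 6 tissues, Acta2 was lower in the Prom1-positive cells, at 6.70 against 7.42 in the Prom1-negative cells (log2 difference -0.72, SE 0.25, adjusted p 0.0484 by limma). Without the sorted samples with striated muscle transcripts it differed by -0.58 (adjusted p 0.203). With all samples it was the 1 member of 6 that passed, where 13.6% of all genes did and 8.56% were lower. Des differed by -0.49 (SE 0.17, adjusted p 0.0536), Myh11 by -0.59 (SE 0.32, adjusted p 0.22), Actg2 by -0.27, Cnn1 by -0.13 and Lmod1 by 0.04. The median of the 6 members was -0.38, against 0.02 over all genes. The call of Acta2 was lost in most fits that left out 1 sample: leaving out each of the 51 sorted samples in turn, the count of called members was 0 in 30 fits and 2 in 5.

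In prostate, Acta2 was 7.43, 7.75 and 7.89 in Prom1-positive cells, against 6.76, 9.32, 9.34, 10.003 and 10.71 in Prom1-negative cells. A single Prom1-negative sample (replicate 1) lay below all 3 Prom1-positive ones, and the other 4 lay above them. Myh11 was 3.19, 4.56 and 5.07 in Prom1-positive cells, against 2.71, 5.59, 6.12, 6.68 and 7.25 in Prom1-negative cells, again with Prom1-negative replicate 1 as the lowest. Des was 5.01, 5.33 and 6.45 in Prom1-positive cells, against 5.65, 5.90, 6.30, 6.69 and 7.29 in Prom1-negative cells, and these ranges overlap.

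None of the 6 members passed the test in prostate, where 9.19% of all genes did and 5.98% were lower: Acta2 differed by -1.54 (SE 0.63, adjusted p 0.132), Myh11 by -1.40 (SE 0.79) and Des by -0.77 (SE 0.44). With neighbouring sample codes as blocks, 3 members were called in prostate: Acta2 at -2.32 (adjusted p 0.000552), Myh11 at -2.41 (adjusted p 0.0259) and Des at -1.17 (adjusted p 0.0376). The shares of 9.19% and 5.98% belong to the fit without blocks, so this count of 3 has no share of all genes beside it. Without Prom1-negative replicate 1, Acta2 was lower in the Prom1-positive cells by a difference of -2.15 with an adjusted p of 0.00968. That sample also had the lowest endothelial list mean of the Prom1-negative prostate cells (5.05, in a range up to 7.69), with a fibroblast list mean of 8.08 in a range up to 9.33. Fibroblast matrix genes, a list of 16 with Col1a1 and Dcn among them, were lower in the Prom1-positive cells for 12 of 16, and their list mean ranged from 5.45 to 7.22 in Prom1-positive against 8.08 to 9.33 in Prom1-negative prostate cells. Their part in the differences of the members was not tested.

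In uterus, Des was 6.79, 6.96, 7.18 and 7.75 in Prom1-positive cells, against 8.20, 8.88 and 9.15 in Prom1-negative cells, with no overlap. Des was the 1 member called (log2 difference -1.57, SE 0.46, adjusted p 0.0165, or 2.97-fold lower in Prom1-positive cells), where 10.9% of all genes passed, 5.31% higher and 5.64% lower. Acta2 was 9.85, 9.91, 10.09 and 10.29 in Prom1-positive cells, against 10.49, 10.77 and 11.14 in Prom1-negative cells, which did not overlap either, and its difference of -0.77 had an adjusted p of 0.639. Myh11 (-1.28), Actg2 (-0.96), Cnn1 (-0.92) and Lmod1 (-0.60) were below 0 without passing. Fibroblast matrix genes fell in 11 of 16, with list means of 8.21 to 9.12 in Prom1-positive against 10.37 to 10.63 in Prom1-negative uterus cells, and their part in this result was not tested. The adjusted p of Des was between 0.0513 and 0.114 when replicate 1 or 2 of the Prom1-negative samples or replicate 4 of the Prom1-positive samples was left out.

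The remaining 4 tissues gave no called member. In lung, 1.51% of all genes passed, 1.11% lower, and Myh11 was 3.40, 5.14 and 7.20 in Prom1-positive cells, against a range of 2.49 to 8.48 with a median of 6.73 in Prom1-negative cells. The spread within each lung group was wider than the difference between them. In liver, 20.7% of all genes passed, 4.2% higher, and Acta2 was 3.40, 3.52, 4.36 and 4.42 in Prom1-positive cells, against a range of 4.30 to 5.59 with a median of 4.82 in Prom1-negative cells (difference -1.001, SE 0.54, adjusted p 0.2). In stomach (3.17% of all genes, 0.888% lower) Acta2 was 4.15, 5.46 and 5.60 in Prom1-positive cells, against 4.15, 6.03, 6.24 and 6.28 in Prom1-negative cells (difference -0.60, SE 0.66). In intestine (0.199% of all genes) it was 2.93, 3.99 and 4.55 in Prom1-positive cells, against 3.27, 3.48, 3.71, 3.97 and 4.90 in Prom1-negative cells (difference -0.04). The test of whether the difference varied between tissues called 0 of 6 members, where it called 21.2% of all genes. Its lowest adjusted p among them was 0.25, for Des, and 0.00471 without the sorted samples with striated muscle transcripts.

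**Figure D2:**
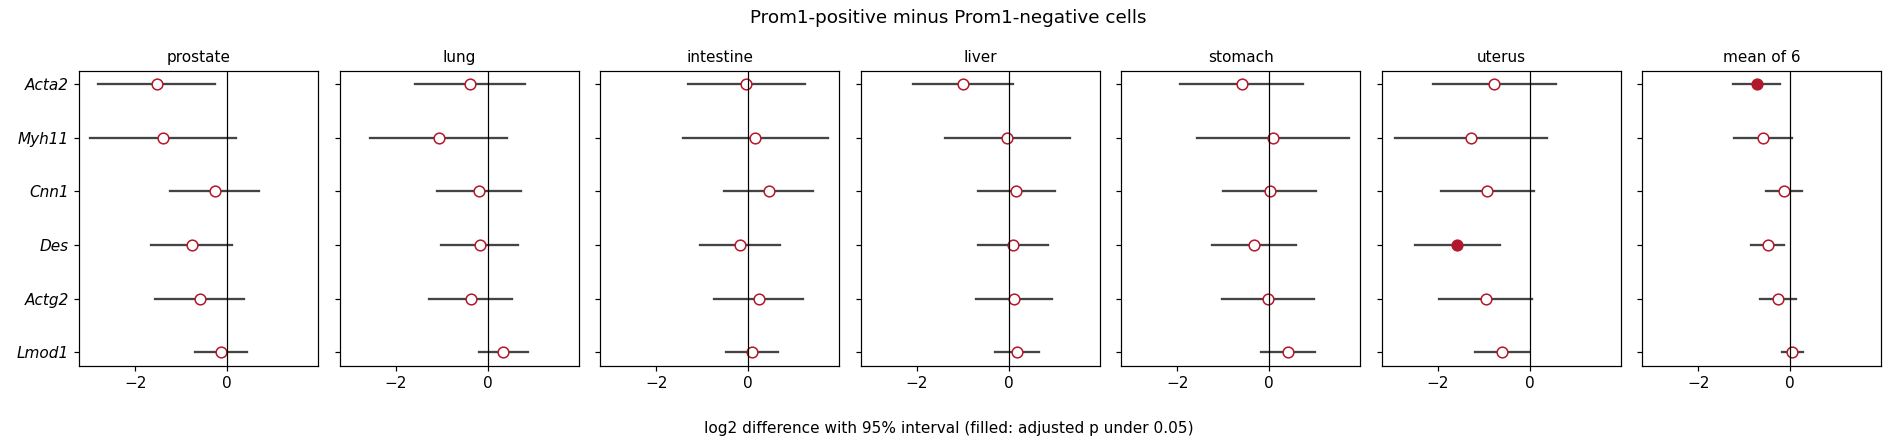
Log2 difference of Prom1-positive minus Prom1-negative cells (horizontal axis) for the 6 tested members (vertical axis), with 95% confidence intervals, by tissue and for the mean of the 6 tissues. Most points for prostate and uterus lie left of 0, and most intervals cross it.

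Other genes of the contractile apparatus were counted from a list of 25, of which 21 were measured. Averaged over the 6 tissues, 8 of 20 tested fell in Prom1-positive cells and none rose. Among them were Flna, an actin cross-linker (-1.18, SE 0.15), Pgm5, a protein of adherens junctions in muscle, Cnn2 (-0.94) and Cald1, the actin-binding caldesmon (-0.78). In uterus 2 fell, Synpo2 (-2.16) and Cald1 (-1.84), in prostate 4 and in liver 6. Of 12 tested regulators, 3 fell: Tcf21, a transcription factor of mesenchymal cells (-1.24), Gata6 (-0.78) and Foxo4 (-0.56). Beside them, 15 of 16 fibroblast matrix genes fell, with a median of -0.94.

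Tumours were then compared with the mean of both sorted groups of their organ. Averaged over the 5 organs, both actins and calponin rose in the tumours: Acta2 by 1.998 (SE 0.19, adjusted p 6.87e-17), Actg2 by 1.26 (SE 0.25, adjusted p 4.89e-06) and Cnn1 by 0.79 (SE 0.27, adjusted p 0.00638). Against Prom1-negative cells alone, Cnn1 differed by 0.67 (adjusted p 0.056). These were 3 of 6 members, where 65.8% of all genes passed, 39% higher and 26.8% lower. Des (0.34), Myh11 (0.21) and Lmod1 (-0.18) did not pass. Without the tumours with striated muscle transcripts the count of called members was 4, with no share of all genes given for that fit. The organs differed in direction: in all 6 members the difference varied between the organs, in a test that called 77.9% of all genes. Since tumours were frozen pieces and normal samples were sorted cells, handling and tumour state cannot be told apart in any of these differences.

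**Figure D3:**
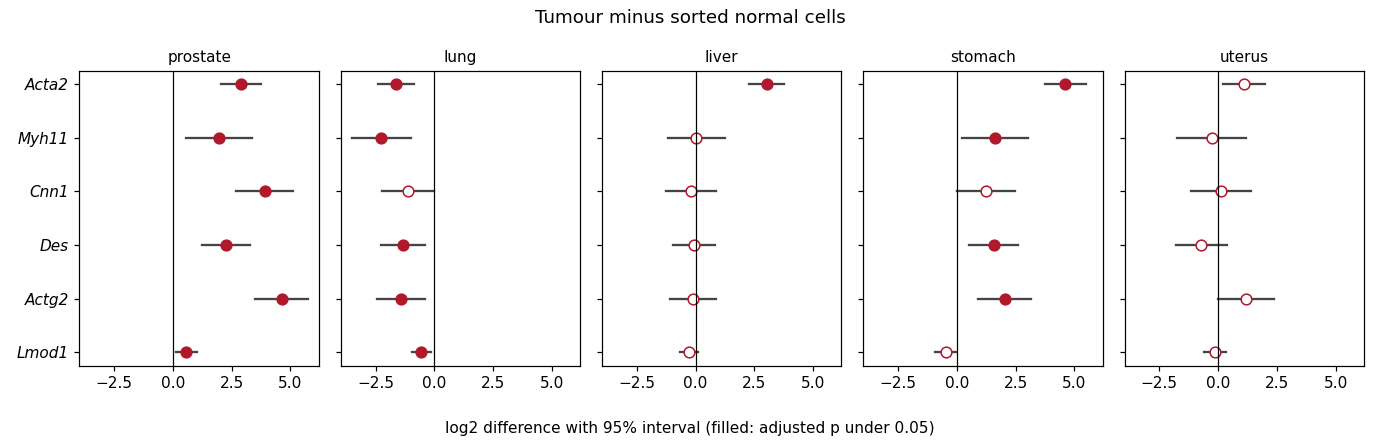
Log2 difference of tumours minus the mean of the sorted groups of the same organ (horizontal axis) for the 6 tested members (vertical axis), with 95% confidence intervals, by organ. All 6 points lie right of 0 in prostate and left of 0 in lung, and in liver Acta2 alone is far from 0.

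In prostate all 6 members rose in the tumours, where 36.7% of all genes passed and 20.9% were higher, and their median was 2.57 against 0.01 over all genes. Actg2 ranged from 6.99 to 9.13 with a median of 7.92 in prostatic adenocarcinomas, against 2.92, 2.95 and 3.14 in Prom1-positive and 3.03, 3.16, 3.39, 3.72 and 4.73 in Prom1-negative prostate cells. Every tumour was above every normal sample, and the rise was 4.62 (SE 0.57, adjusted p 5.48e-11, 24.6-fold over signals that were dim in 7 of 8 normal samples). Cnn1 ranged from 5.51 to 9.39 with a median of 7.80 in the tumours, against 3.38, 3.53 and 3.65 in Prom1-positive and 3.32, 3.49, 3.54, 3.70 and 4.94 in Prom1-negative cells. It too was above every normal sample in 10 of 10 tumours, and rose by 3.90 (SE 0.61, adjusted p 1.28e-07), again over signals that were dim in 7 of 8 normal samples. Signals that dim may be background, so the sizes of the rises in Actg2 and Cnn1 are uncertain. Acta2 ranged from 10.77 to 12.27 in the tumours, all above the highest normal sample (10.71), and rose by 2.88 (SE 0.43, adjusted p 2.93e-08, 7.35-fold).

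Des rose by 2.27 (SE 0.52, adjusted p 0.000242), with 8 of 10 tumours above every normal sample. Its second, mostly dim probe set ran the other way. Myh11 rose by 1.96 (SE 0.70, adjusted p 0.021) and Lmod1 by 0.57 (SE 0.23, adjusted p 0.0407), with 5 and 4 of 10 tumours above every normal sample. These last 2 calls are less firm. Without the 2 prostatic tumours with striated muscle transcripts (and those of other types), Myh11 differed by 1.46 (adjusted p 0.0585) and Lmod1 by 0.43 (adjusted p 0.119). Against Prom1-negative cells alone, Myh11 differed by 1.26 (adjusted p 0.227), and without Prom1-negative replicate 1 by 1.59 (adjusted p 0.0702). Read from its second probe set, Myocd was 2.86 to 5.47 in the tumours, against 3.07, 3.32 and 3.91 in Prom1-positive and 2.43 to 3.15 in Prom1-negative cells. That probe set differed by 0.95 (SE 0.25, adjusted p 0.00131), with the highest values in tumours 5 (5.47), 8 (5.46), 4 (4.94) and 10 (4.89), whereas the probe set used was dim in all 10. Of the other contractile genes, 10 of 21 rose and none fell, among them Tpm2 (2.97) and Tpm1 (2.02), the tropomyosins, Cald1 (2.24), Myl9 (2.19) and Actn1, an actin cross-linker (2.13). Regulators moved otherwise: Klf5 rose (1.84), and Tcf21 (-2.35), Klf4 (-2.01), Hexim1 (-1.05) and Srf (-0.85) fell. Fibroblast matrix genes rose in 10 of 16 and fell in 1 (list means of 7.05 to 10.12 in the tumours, against 5.45 to 7.22 in Prom1-positive and 8.08 to 9.33 in Prom1-negative cells). Pericyte genes rose in 3 of 8 and striated muscle genes in 5 of 23. The part of these cell types was not tested.

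In lung the direction was the opposite, and 5 of 6 members fell in the adenomas, where 43.1% of all genes passed and 19.7% were lower. Their median was -1.38, against -0.003 over all genes. Myh11 ranged from 2.43 to 6.25 in bronchial papillary adenomas, against 3.40, 5.14 and 7.20 in Prom1-positive lung cells and 2.49 to 8.48 (median 6.73) in Prom1-negative lung cells. It fell by 2.26 (SE 0.63, adjusted p 0.00202), to a level that was dim in most tumours. Acta2 ranged from 6.39 to 9.12 in the adenomas, against 9.19, 9.84 and 9.89 in Prom1-positive and 7.17 to 11.65 (median 10.28) in Prom1-negative lung cells. It fell by 1.63 (SE 0.39, adjusted p 0.000259).

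Actg2 fell by 1.43 (adjusted p 0.0174), Des by 1.33 (adjusted p 0.0151) and Lmod1 by 0.55 (adjusted p 0.0228), and Cnn1 differed by -1.13 (SE 0.55, adjusted p 0.0923). Without the tumours with striated muscle transcripts all 6 members were called, Cnn1 included, with no share of all genes given for that fit. The low Prom1-negative sample was replicate 7, with Des at 4.32 against 6.28 to 7.20 in the other 6. Without replicate 1, the Prom1-positive sample with the highest Myh11 and Des, 3 members were called. With Prom1-positive cells as the only normal group, 1 was. Without the 7 sorted samples with striated muscle transcripts, 3 remained called, Myh11 (-2.94), Des (-1.82) and Acta2 (-1.50), while Actg2 differed by -1.63 (adjusted p 0.1) and Lmod1 by -0.41 (adjusted p 0.351). Of the contractile list 9 genes fell as well, among them Ppp1r14a, an inhibitor of myosin phosphatase (-2.78), Synm, an intermediate filament protein (-2.18), and Myl9 (-2.17), while Tpm1 (1.95) and Actn1 (0.64) rose. Of the regulators, Klf5 (2.64) and Gata6 (1.62) rose and 7 fell, with Tcf21 (-3.35) and Foxf1 (-2.70) lowest. Fibroblast matrix genes fell in 10 of 16 and pericyte genes in 6 of 8. Fibroblast list means were 5.67 to 6.89 in the adenomas, against 6.89 to 8.03 in Prom1-positive and 7.42 to 9.01 in Prom1-negative cells, and their part was not tested.

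In liver Acta2 was the 1 member called. It ranged from 5.27 to 9.49 with a median of 7.42 in hepatocellular carcinomas, against 3.40, 3.52, 4.36 and 4.42 in Prom1-positive and 4.30 to 5.59 (median 4.82) in Prom1-negative liver cells. In 12 of 13 tumours it was above every normal sample, and the rise was 3.02 (SE 0.37, adjusted p 5.07e-11, 8.13-fold), where 47.2% of all genes passed, 29.2% higher and 18% lower. The other 5 members differed by -0.28 to 0.03, none past the test. Myh11 was 2.52 to 3.65 in the tumours, Cnn1 2.59 to 3.19 and Actg2 2.72 to 4.29, so that these members were dim in nearly all of them. The highest Acta2 and the highest Actg2 were in the same tumour (number 6), which also had the highest pericyte list mean of the type, 6.68 in a range from 4.67.

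Tpm1 (1.84), Myl9 (1.65), Cald1 (1.04), Tpm2 (0.98) and Flna (0.77) rose with Acta2 in liver tumours, and Ppp1r14a (-1.61) and Nexn (-1.13) fell. Pericyte genes were above 0 in 8 of 8 and rose in 4. Fibroblast matrix genes rose in 9 of 16 and fell in 1, with list means of 5.08 to 7.95 in the tumours, against 4.74 to 5.14 in Prom1-positive and 5.56 to 6.45 in Prom1-negative cells. Genes of hepatic stellate cells, the liver cells that can become myofibroblasts, rose in 0 of 8 and fell in 4. The part of these cell types was not tested.

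In stomach Acta2 was 8.88 to 12.55 in gastric adenocarcinomas, against 4.15, 5.46 and 5.60 in Prom1-positive and 4.15, 6.03, 6.24 and 6.28 in Prom1-negative cells. All 11 tumours stood above every normal sample. The rise of 4.62 (SE 0.43, adjusted p 1.21e-16, 24.6-fold) was the steepest of Acta2 in the 5 organs. Actg2 rose by 2.04 (SE 0.57, adjusted p 0.00146), Myh11 by 1.61 (SE 0.71, adjusted p 0.0435) and Des by 1.56 (SE 0.52, adjusted p 0.00759). These were 4 of 6 members, where 58.1% of all genes passed and 35% were higher. Cnn1 differed by 1.24 (adjusted p 0.0766) and Lmod1 by -0.48 (adjusted p 0.0676).

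Apart from Acta2, these calls were lost without 2 of the 11 tumours. Des was above every normal sample in 10 of 11 tumours, Actg2 in 9 and Myh11 in 4. In gastric tumour 11, Acta2 was 12.55, Myh11 10.21, Cnn1 11.20, Des 10.65 and Actg2 11.89. In gastric tumour 7 the same genes were at 11.10, 8.52, 7.34, 7.25 and 8.14. In the other 9 gastric tumours, Myh11 was 2.45 to 3.89, Cnn1 2.89 to 4.14, Des 4.27 to 5.58 and Actg2 3.01 to 5.38, below both. Without the 2 tumours, Acta2 remained called, while Actg2 differed by 0.98 (adjusted p 0.0548), Des by 0.86 (adjusted p 0.114) and Myh11 by 0.49 (adjusted p 0.518). Lmod1 was then lower by 0.69, but the 2 tumours left out were also its highest of the type, so that fit cannot test a fall. Leaving out either tumour alone also ended the call of Myh11, at 1.02 without tumour 11 and 1.19 without tumour 7. Both tumours were within the range of their type in fibroblast matrix genes, at 9.04 in tumour 11 and 8.76 in tumour 7 (type range 7.97 to 9.34).

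In gastric tumours 12 of 21 other contractile genes rose and 1 fell. Cald1 (6.33) and Flna (5.13) led, before Myl9 (4.14), Cnn2 (3.80), Tpm2 (3.03) and the myosin light chain kinase Mylk (2.99), and Pcp4l1 fell (-2.41). Of the regulators 7 rose, among them the cytokine Tgfb1 (2.44) and its receptor Tgfbr2 (2.29), with Srf at 0.82, and Klf4 (-1.21), Gata6 (-1.07) and Klf5 (-0.71) fell. Fibroblast matrix genes rose in 15 of 16 with a median of 4.71, and pericyte genes in 5 of 8. Fibroblast list means were 7.97 to 9.34 in the tumours, against 4.09 to 5.03 in Prom1-positive and 3.46 to 5.08 in Prom1-negative stomach cells, and their part was not tested.

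In uterus none of the 6 members passed, where 28.8% of all genes did. The normal cells were already high in these genes, and the tumours scattered on both sides of them. Acta2 was 10.35 to 12.95 in uterine adenocarcinomas, against 9.85 to 10.29 in Prom1-positive and 10.49 to 11.14 in Prom1-negative uterus cells (difference 1.10, SE 0.45, adjusted p 0.0546), with 6 of 9 tumours above every normal sample. The adjusted p lay under the threshold, at 0.0393, without Prom1-negative lung replicate 7, and at 0.0427 without Prom1-negative prostate replicate 1, which enter through the shared spread. Myh11 was 3.21 to 9.45 in the tumours, against 5.16 to 6.45 in Prom1-positive and 6.25 to 8.25 in Prom1-negative cells (difference -0.28, SE 0.74). For Myh11, 2 tumours lay above and 4 below all 7 normal samples. Des split the same way, with 2 above and 4 below (difference -0.72, SE 0.55, adjusted p 0.362).

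Of the other contractile genes, 11 rose in uterine tumours and 4 fell, with Tpm2 (1.36), Cnn2 (1.36) and Tpm1 (1.27) among the rises. Synpo2, an actin-bundling protein of smooth muscle, fell by 3.96 (SE 0.53). Klf4 (-2.91) and Tcf21 (-3.10) were among 5 regulators that fell, and Tgfb1 rose (0.90). Pericyte genes rose in 6 of 8, and fibroblast matrix genes rose in 2 and fell in 4 of 16.

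All 6 members differed among the 7 tumour types, by a test that called 95.1% of the 13456 genes tested. Prostatic and uterine adenocarcinomas were the types with high values, bronchial adenomas and hepatocellular carcinomas those with low ones. Against the mean of the other 6 types, all 6 members were higher in prostatic adenocarcinoma (41.8% of all genes passed, 22.1% higher and 19.6% lower). Cnn1 led with 3.50 (SE 0.54, adjusted p 2.85e-07), followed by Actg2 (3.13), Myh11 (2.60), Des (2.47), Acta2 (2.12) and Lmod1 (0.47, adjusted p 0.0337). Lmod1 had an adjusted p of 0.121 once tumours with striated muscle transcripts were left out. In uterine adenocarcinoma all 6 were higher as well (29.8% passed, 17.3% higher), with Actg2 at 2.99 (SE 0.52, adjusted p 7.92e-06), Acta2 at 2.34, Cnn1 at 2.10, Myh11 at 1.73 (adjusted p 0.0227), Des at 1.29 (adjusted p 0.0316) and Lmod1 at 0.56 (adjusted p 0.0219).

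In hepatocellular carcinoma 5 of 6 members were lower than in the other types (66.3% of all genes passed, 41.3% lower): Actg2 by a difference of -2.45, Acta2 of -2.41, Myh11 of -2.12, Cnn1 of -1.90 and Des of -1.85. In bronchial papillary adenoma 5 of 6 were lower (58.1% passed, 34.1% lower), at -2.26 for Actg2, -1.53 for Acta2, -1.37 for Myh11, -1.54 for Cnn1 and -1.42 for Des. Gastric adenocarcinoma had no called member (47.9% passed) with all tumours. Gastric tumours 7 and 11 were then left out, a choice made after they were seen to be the highest of their type in these genes. Leaving out the highest tumours lowers the mean of the type by itself, so that fit cannot test whether gastric tumours are lower. In it, Myh11 differed by -1.56, Cnn1 by -1.13, Des by -1.10, Actg2 by -1.06 and Lmod1 by -0.53, which is a description. Skin squamous cell carcinoma had no called member (41.7% passed). In B-cell lymphoma Acta2 was lower, at 7.13, 7.88 and 9.17 (difference -1.70, SE 0.52, adjusted p 0.00574, where 46.6% passed and 22.3% were lower). That call was lost without tumour 1 (-1.24, adjusted p 0.124). Each comparison is with the mean of the other 6 types, so they share samples.

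The list of other contractile genes showed counts of 9 higher and 0 lower in prostatic, 12 and 0 in uterine, 5 and 1 in gastric, 8 and 4 in bronchial and 2 and 13 in hepatic tumours, 2 and 2 in skin tumours and 1 and 7 in lymphoma. Fibroblast matrix genes were higher in 11 of 16 in prostatic, 13 in uterine and 13 in gastric tumours, and lower in 12 in bronchial and 14 in hepatic tumours. The part of fibroblasts in the differences between types was not tested.

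**Figure D4:**
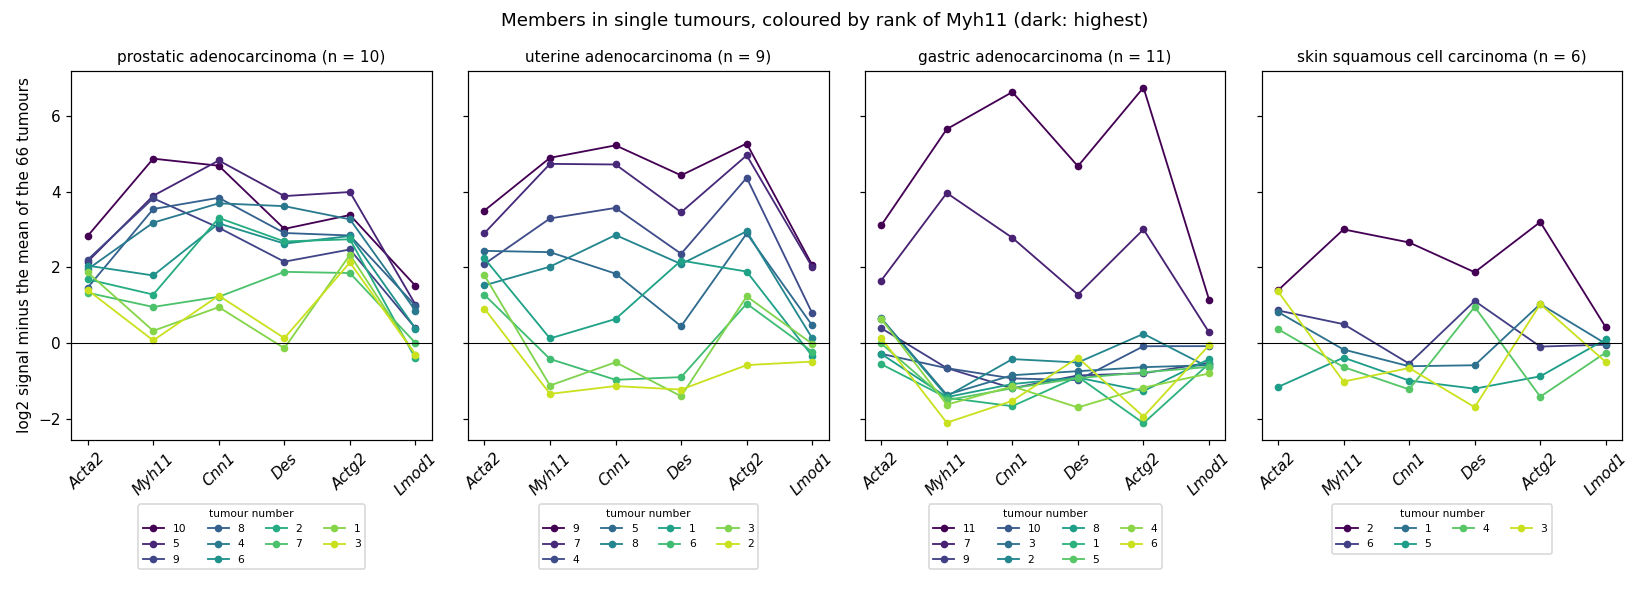
Log2 signal of 6 members minus the mean of the 66 tumours (vertical axis), 1 line per tumour, for the prostatic, uterine and gastric adenocarcinomas and the skin squamous cell carcinomas, coloured by the rank of Myh11 within the type. In gastric adenocarcinoma the lines of tumours 11 and 7 stand above the other 9 in Myh11, Cnn1, Des and Actg2, whereas prostatic and uterine tumours spread without a single gap.

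Single tumours of a type differed widely. Among uterine adenocarcinomas, tumour 9 had Acta2 at 12.95, Myh11 at 9.45, Cnn1 at 9.79, Des at 10.40 and Actg2 at 10.41. Tumour 7 came next, with Myh11 at 9.29 and Des at 9.43, and then tumour 4 with 7.85 and 8.33. At the other end, tumour 2 had Acta2 at 10.35, Myh11 at 3.21, Cnn1 at 3.42, Des at 4.74 and Actg2 at 4.55, and tumour 3 had Myh11 at 3.43 and Des at 4.56. Myh11 was dim in both of these, while Acta2 was high in all 9. The 4 tumours lowest in Myh11 (6, 1, 3 and 2), and also tumour 5 (Myh11 at 6.96), were low in the genes that define uterus (a list of 6 with Esr1, Pgr and Hoxa10). The list mean was 3.72 to 4.47 in tumours 1, 2, 3, 5 and 6, against 6.24 to 6.78 in tumours 4, 7, 8 and 9 and 6.63 to 7.24 in sorted uterus cells. Krt5, the keratin of basal stratified epithelium, was 10.95 to 12.51 in those 5 tumours and 5.76 to 10.90 in the other 4, against 3.92 to 6.31 in sorted uterus cells. Tumour 6 carried liver genes at a list mean of 11.78, and tumour 1 striated muscle genes at 6.28, with 19 of 24 above the array median.

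Among prostatic adenocarcinomas, Myh11 was highest in tumours 10 (9.43), 5 (8.45), 9 (8.38) and 8 (8.10), and lowest in tumours 3 (4.62) and 1 (4.88). The same 4 tumours at the top had the highest means of the prostate genes (4 measured: Pbsn, Tgm4, Msmb and Sbp), at 9.11, 8.08, 11.10 and 6.81. The other 6 tumours had means of 4.16 to 6.31, and sorted prostate cells had 12.81 to 13.35. Tumours 10 and 9 also carried striated muscle genes, at list means of 6.25 and 5.93, with Ckm, the muscle creatine kinase, at 8.72 in tumour 10. Fibroblast matrix genes ran otherwise: they were lowest in tumours 8 (7.05) and 10 (7.12) and highest in tumour 7 (10.12), where Myh11 was 5.51. Actg2, in contrast to Myh11, was between 6.99 and 9.13 in all 10.

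**Figure D5:**
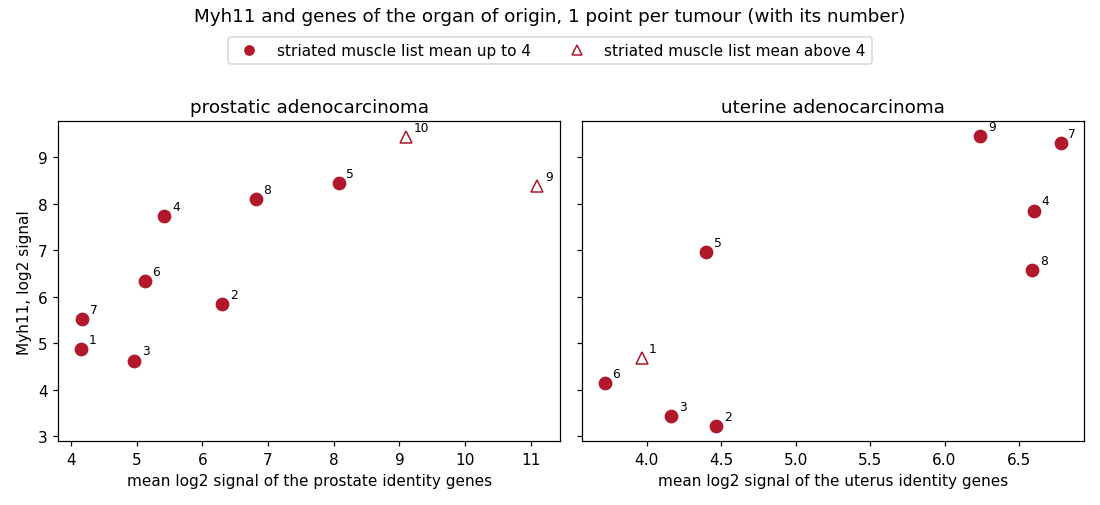
Log2 signal of Myh11 (vertical axis) against the mean log2 signal of the genes that define the organ (horizontal axis), 1 point per tumour with its number, for prostatic (left) and uterine (right) adenocarcinomas. Open triangles are tumours with a striated muscle list mean above 4, and in each type the tumours with the highest Myh11 are among those with the highest organ genes.

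In the other types single tumours stood out as well. Of the skin carcinomas, tumour 2 had Myh11 at 7.56, Cnn1 at 7.22, Des at 7.84 and Actg2 at 8.34, against 3.53 to 5.05, 3.34 to 4.02, 4.27 to 7.08 and 3.72 to 6.17 in the other 5. Des was also raised above the remaining 3 skin tumours in tumours 4 (6.93) and 6 (7.08), the samples with the highest striated muscle list means of the type (6.56 and 6.69). Of the bronchial adenomas, tumour 1 had Myh11 at 6.25, Cnn1 at 5.20 and Des at 6.84, against 2.43 to 4.64, 2.75 to 3.33 and 4.21 to 5.34 in the other 13. It also had Myl7, the atrial myosin light chain, at 11.41. In B-cell lymphoma the order of the 3 tumours was the same in all 6 members: tumour 3 was highest, then 2, then 1, with Des at 7.06, 6.07 and 5.33.

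Genes outside the members were ranked by Pearson r with the mean of the 7 measured members, the dim Myocd included, over the 19 group means, among 14657 genes. The nearest 10 were Col1a1 (0.943), Mmp2 (0.933), Myl9 (0.932), Col5a1 (0.925), Nkd2 (0.917), Cdh11 (0.916), Apcdd1 (0.911), Col16a1 (0.908), Cxcl14 (0.907) and Wnt5a (0.904). Col1a1, Col5a1 and Col16a1 encode collagen chains, Mmp2 a matrix metalloproteinase and Cdh11 a cadherin of mesenchymal cells. Myl9 is the contractile gene among them. By rank correlation 5 of the 10 stayed among the nearest 10. The points share arrays and normalization, and the ranking is a description.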

How the data were processed

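The authors deposited log2 signals per probe set, made with RMA in Partek 6.6 per the submitters' processing notes; settings and any batch correction are not given in the sources used here. They were used without further normalization. Of 45141 probe sets, 28898 had 1 gene symbol, 551 several and 15692 none, by the platform annotation, and only those with 1 were used. Symbols were updated by Entrez identifier with RefSeq (GRCm38.p6). A gene was read from its probe set of highest mean signal over 117 arrays.

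A gene was tested when its signal exceeded the array median in at least 3 of the arrays fitted, which left 14081 genes for the 51 sorted samples, 14663 for tumours against normal cells (117 samples) and 13456 for the 66 tumours. Group means were fitted with limma 3.58.1 (lmFit, eBayes, moderated F) in R 4.3.3, two-sided, with Benjamini-Hochberg adjustment over all genes tested and a threshold of 0.05. The script was tested on simulated data. Arrays give no read depth, and their number limits the precision. The members and gene lists were chosen with earlier results of these data known. Genes named outside the members were mainly called genes of the contractile and regulator lists, genes of those lists with a strict CArG box, and the 10 nearest by Pearson r. No fixed number of list genes per comparison was kept. Single markers of other cell types (Krt5, Ckm, Myl7 and Tnnt3) were picked by hand. Alternatives concerned the probe set, filter, normalization, covariates, blocks, normal group, samples fitted and single replicates. Leaving out samples with striated muscle or other organs' transcripts, the 2 high gastric tumours or single Prom1-negative lung and liver samples was chosen after seeing the data. Tables were read by the R package data.table (1.17.8) and Python 3.11, and matplotlib 3.10.9 drew the figures.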

Additional observations from a re-analysis of the deposited data

Results flagged for a closer look

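In 7 of 70 groups of 4 to 10 samples tested over the 7 measured members, 1 sample lay far from the rest by Dixon's test, where chance gives about 1 in 20. In Prom1-negative stomach cells, Acta2 was 4.15 in replicate 1, below the other 3 samples. In Prom1-negative lung cells, Des was 4.32 in replicate 7. In skin squamous cell carcinoma, Cnn1 was 7.22 in tumour 2. In Prom1-negative prostate cells, replicate 2 was high in Cnn1 (4.94) and Lmod1 (3.96). Myh11 was low in replicate 6 of the Prom1-negative intestine cells (2.17) and high in replicate 4 of the Prom1-negative liver cells (3.57), both at dim levels.

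The difference between tumours and normal cells varied between the 5 organs in all 6 tested members. The adjusted p of limma's F test of that interaction was 6.59e-17 for Acta2, 3.03e-10 for Actg2, 1.1e-06 for Cnn1, 7.49e-06 for Des, 0.000251 for Myh11 and 0.00731 for Lmod1. Such an interaction was found in 77.9% of all genes.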

How the results depend on the processing

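Of 1695 counts of called members over all alternatives, 1600 stayed within 1.5 times the value reported. Of 10124 values of single members, 9932 kept their side of the threshold. Direction was compared only for differences that passed in the reported fit, so members that did not pass could change sign and still be counted as kept. Shares of all genes called are not given for the alternative fits. The second probe sets of Acta2, Myh11, Des and Myocd reversed Des in prostate (-0.35) and stomach (-0.31) and Myh11 in stomach (-0.28) for tumour minus normal. The reversed difference of Des in prostate passed the test (limma adjusted p at most 0.0325). Apart from that of Myocd in prostatic tumours, these second probe sets were mostly dim. With them the count of called members was 3 among normal tissues, 0 for the mean sort difference and in uterus, 1 in liver, in prostate and for the interaction of sort and tissue, 2 in liver and stomach and 1 in uterus for tumour minus normal, and 3 in uterine and hepatic, 2 in bronchial and 0 in lymphoma tumours against the other types. The mean of all probe sets gave 0 for the mean sort difference, 1 in prostate and 1 for the interaction, and 1 for tumour minus normal in uterus, and ended the calls of Des (0.63, adjusted p 0.0576) and Myh11 (0.66, adjusted p 0.163) in stomach.

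The mean sort difference called 0 members without the filter, after repeated quantile normalization, after centring, without samples with another organ's genes and with the title number as a replicate block, which also gave 0 in uterus. Same-numbered samples correlated above 0.1 in 7 of 19 pairs, with a highest r of 0.59 in liver. Differently numbered samples were not compared, so this check cannot decide whether the numbers pair samples. The replicate block changed no other count of called members. Blocks of neighbouring sample codes in the titles called 2 members for the mean and 3 in prostate, where Acta2 was -2.32, Myh11 -2.41 and Des -1.17. With the samples of 1 tissue alone, uterus called 2 and liver 1, and with all 117 samples uterus called 0. For tumour minus normal, liver called 2 without the filter, and lung 1 against Prom1-positive cells only. Stomach called 2 against Prom1-negative cells only, with the upper quartile as covariate, without arrays of upper quartile under 6 and without both high gastric tumours, and 1 with stomach samples alone. Without the sorted samples with striated muscle transcripts, the mean sort difference called 0, its interaction with tissue 1 and lung tumours 3. Uterus called 1 against Prom1-positive cells only, with uterus samples alone, without striated muscle or other organs' transcripts and without gastric tumour 11 alone, and 2 without both high gastric tumours. Among tumour types, gastric called 5 without both high tumours, which were chosen by their values in these genes. It called 1 without gastric tumour 11 or without striated muscle. Lymphoma called 3 with all 117 samples or without both gastric tumours, and 2 without gastric tumour 11 or striated muscle. Skin called 1 with the upper quartile as covariate.

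With single replicates left out, the counts ranged from 0 to 2 for the mean sort difference, 0 to 1 in prostate and in uterus, 0 to 1 in lymphoma, and for tumour minus normal 3 to 5 in lung and 0 to 1 in uterus. Rank correlation shared 5 of the 10 nearest genes. Some second probe sets were dim and some fits had fewer samples, but why the counts moved was not tested. Signals near the array median limit Lmod1 and Myocd in most groups, Cnn1 and Actg2 in sorted prostate cells, and Myh11, Cnn1 and Actg2 in bronchial adenomas and in liver, stomach and intestine cells.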

Other observations

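Genes of the dim range give a further view of the groups. Lmod1, whose protein nucleates actin filaments of smooth muscle, had group means above the array medians in 6 of 19 groups. Its highest samples were uterine adenocarcinomas, at up to 5.62, against at most 4.17 in Prom1-positive and 4.75 in Prom1-negative uterus cells. Myocd, the co-activator, was dim on every array by the probe set used, and its 2 probe sets ordered the groups differently. The probe set used had its highest group mean in Prom1-negative liver cells (3.48), where the second one had 2.69. The second one was highest in prostatic adenocarcinoma (4.07 ± 1.03, SD, n = 10) and lowest in hepatocellular carcinoma (2.61), and a single Prom1-negative stomach sample reached 5.90. That sample had the highest array median (4.01) and the lowest upper quartile (5.05) of the series. Its mean correlation with the other samples of its group was 0.71, so its value may reflect array quality.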
